A study of Caenorhabditis elegans with 4 samples.

Results

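The X chromosome carried 410 of the 3503 LIN-13 peaks of the combined peak list, 191 of the 1494 peaks of ChIP replicate 1 and 234 of the 1997 peaks of ChIP replicate 2. Members were all combined peaks whose record names chromosome X, and the binding strength of a peak played no part in the choice. The peaks come from chromatin immunoprecipitation and sequencing (ChIP-seq) of whole hermaphrodite C. elegans larvae of stage L2, the second larval stage. The series has 2 ChIP samples and 2 inputs, which are the total chromatin before precipitation. All animals were of strain OP49, which carries unc119(ed3) and the transgene wgIs49, in which lin-13 is fused to TY1, EGFP and FLAG tags and unc119 serves as the marker. Growth was at 20 degrees, and 2% formaldehyde was the crosslinker. The transgene was brought in by bombardment, so the protein mapped is a tagged LIN-13 from an added copy of the gene, collected with an antibody against GFP, and the genotype lists no lesion in lin-13 itself. Whether the ChIP samples are separate cultures is not given in the labels, and the spread between them may be technical. Whole larvae were used, and binding in a few cells cannot be told apart from weaker binding in many.

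LIN-13, which has zinc fingers, belongs to the synMuv B proteins, chromatin and transcription regulators that act with the worm homologue of the retinoblastoma protein and keep vulval and germline genes off where they do not belong. It is known to act together with HPL-2, a worm protein of the heterochromatin protein family. The X chromosome of C. elegans differs from the autosomes in chromatin. In hermaphrodites the dosage compensation complex binds both X chromosomes and lowers their transcription, and the repressive histone methylation that marks the arms of autosomes is less widespread on X.

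Each peak is given by its first and last base in WormBase WS180 and by its strength, the −log10 of the q-value that the authors' peak caller PeakSeq assigned. Strength is the authors' value and orders peaks within 1 list. The lists hold no read counts, so sequencing depth is unknown and strengths and peak numbers of different lists are not on 1 scale. No test is given between X and the autosomes. Peaks of 1 list are not replicates, and an exact two-sided sign test over 2 ChIP samples cannot give a p below 0.5. Differences are therefore read from their presence or absence in both replicates, and 95% Wilson intervals cover the counting of peaks only. No genome of build WS180 was used, so peaks are named by position and were not assigned to genes.

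The strongest X peaks were found in both replicates, and most of them were about 1 kb wide. The strongest was a peak of 2901 bp at X 16929137 to 16932037, near the right end, with a strength of 227 in the combined list, 104 in replicate 1 and 124 in replicate 2. It ranked 3, 1 and 3 among all peaks of these lists. The next was X 14525329 to 14526417, 1089 bp wide, with strengths of 147 in the combined list, 60.9 in replicate 1 and 110 in replicate 2. The first peak was called at nearly the same bases in both replicates, from 16929108 to 16932026 in replicate 1 and from 16929151 to 16932031 in replicate 2.

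Near the middle of the chromosome, X 8035745 to 8036954 (1210 bp) had strengths of 147 in the combined list, 79.4 in replicate 1 and 103.3 in replicate 2. X 2996408 to 2997666 (1259 bp), in the left part, had 133, 67.0 and 82.3 in the same order of lists. X 11093665 to 11094499 was the narrowest of the 8 strongest, at 835 bp, and had 129, 70.4 and 104. Each of these 5 sites was matched by exactly 1 peak in each replicate.

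The sixth, X 4140729 to 4149004, was a domain of 8276 bp, with a strength of 128 in the combined list. Replicate 1 called 3 separate peaks within it, of which the one of largest overlap had a strength of 20.5 and rank 129 of that list. Replicate 2 called 2, the larger with 57.9 and rank 24. The replicates thus called parts of the domain. The widest X peak was likewise called in parts. X 6736255 to 6746167 spanned 9913 bp with a strength of 74.1, and held 3 peaks of replicate 1 and 2 of replicate 2, with 28.7 and 26.9 for the pieces of largest overlap.

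X 4208520 to 4209835 (1316 bp) and X 6295991 to 6297074 (1084 bp) followed with combined strengths of 117 and 115. Their strengths were 56.8 and 57.3 in replicate 1, and 76.1 and 74.5 in replicate 2. X 11602679 to 11608166, a domain of 5488 bp, had 102, 39.8 and 67.7 in the combined list, replicate 1 and replicate 2, and was called as a single peak in each replicate. X 13700334 to 13701184, of 851 bp, had 95.2, 49.7 and 73.1. The other 10 of the 20 strongest had combined strengths of 53.6 to 92.5. Among them were X 9465393 to 9466272 (strength 92.5, 880 bp), X 6252081 to 6256167 (82.2, 4087 bp) and X 12362756 to 12363555 (81.3, 800 bp). The narrowest of the 20 was X 16056115 to 16056831 (75.8, 717 bp), and the widest was the domain of 9913 bp described above. X 11937098 to 11937960 (62.9, 863 bp) and X 13143303 to 13146081 (61.3, 2779 bp) came next. The last were X 806211 to 807025 (57.7, 815 bp), X 5840824 to 5842079 (54.6, 1256 bp) and X 1626693 to 1627506 (53.6, 814 bp). All 20 overlapped a peak of each replicate, as did all of the 20 strongest autosomal peaks. Of the X peaks, 10 lay to the left and 10 to the right of the middle of the chromosome.

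These 20 were also all the X peaks with a strength of 50 or more, 4.88% of the X peaks (Wilson interval 3.18 to 7.41%), against 80 of 3093 autosomal peaks or 2.59% (2.08 to 3.21%), where 2.85% of all combined peaks reached that strength. The replicates showed the same order. In replicate 1, 7 X peaks (3.66%) and 10 autosomal peaks (0.767%) reached 50, against 1.14% of all its peaks. In replicate 2 they were 12 X peaks (5.13%) and 24 autosomal peaks (1.36%), against 1.8% of all. In both replicates the X share was above that of each of the 5 autosomes, as it was in the combined list. These autosomal shares rest on 1 to 3 peaks per chromosome in replicate 1 and 3 to 7 in replicate 2. In the combined list the X interval overlapped that of each autosome except chromosome IV (0.990 to 3.14%). The 90th percentile of strength was 24.6 on X and 18.2 on the autosomes in replicate 1, and 25.4 and 17.9 in replicate 2, whereas the medians were closer, at 6.88 and 6.28 in replicate 1 and 6.54 and 6.50 in replicate 2. In the combined list the 90th percentile was 25.76 on X and 22.89 on the autosomes, but chromosomes II (25.77) and III (25.76) were level with X. The combined medians were 6.91 on X and 6.96 on autosomes.

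At this strength X peaks were mostly narrow. Of the 20 X peaks, 14 were under 1500 bp and the median width was 1149.5 bp, whereas 46 of the 80 autosomal peaks were 1500 bp or wider and their median was 2257.5 bp. In the replicates, the medians on X and autosomes were 984 and 1204.5 bp (7 and 10 peaks) in replicate 1, and 1082 and 1819 bp (12 and 24 peaks) in replicate 2. Chromosome III was the exception in the combined list, with a median of 1058 bp for its 30 peaks of that strength, below that of X.

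Of the 20 strongest peaks, 6 were 1500 bp or wider. Over all strengths the order of widths turned round, and X peaks were the wider ones. The median of all combined X peaks was 660 bp (quartiles 443.5 and 1042 bp), and the 5 autosomal medians lay between 448 and 533 bp. The X median was above that of all 5 autosomes in replicate 1 (660 bp, against 467 to 554 bp) and in replicate 2 (643 bp, against 464 to 546 bp) as well. Stronger peaks were wider on X and on autosomes alike (Spearman's rho of width and strength 0.50 over the 410 X peaks and 0.52 over the autosomal peaks, a description across peaks of 1 list). Widths were therefore also compared at roughly matched strength, in 10 classes of about equal number cut from the q-values of each whole list.

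In the combined list the X median width exceeded the autosomal one in all 10 classes, by 56.5 to 336 bp. In the weakest class it was 394 bp on X and 337.5 bp on autosomes. In class 6, with strengths of 6.96 to 8.47, it was 810 bp on X and 474 bp on autosomes. In the strongest class it was 1210 bp and 1082 bp. That class has no upper bound, and X peaks in it were stronger, so strength is only loosely matched there. Its median strengths were 44.3 on X and 35.5 on autosomes in the combined list. They were 30.6 and 26.3 in replicate 1, and 38.0 and 26.6 in replicate 2. In each replicate X was the wider in 9 of 10 classes, the exceptions being the strongest class of replicate 1 (947 bp on X, 999 bp on autosomes) and class 6 of replicate 2 (521 and 526 bp). The median of the 10 differences was 131 bp in the combined list, 107 bp in replicate 1 and 137 bp in replicate 2. The classes held between 9 and 48 X peaks, so single class medians are imprecise.

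The same count was made for each autosome against the remaining chromosomes. Chromosome V was wider in 9 of 10 classes in the combined list, but in 5 of 10 in each replicate. Chromosome I was wider in 4 classes of the combined list and in 8 of 10 in each replicate. Chromosome III was wider in 1, 1 and 2 classes of the combined list, replicate 1 and replicate 2. X was wider in 9 or more classes of every list, and among the autosomes only chromosome V reached 9, in the combined list alone. These counts are a description with no test.

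**Figure D1:**
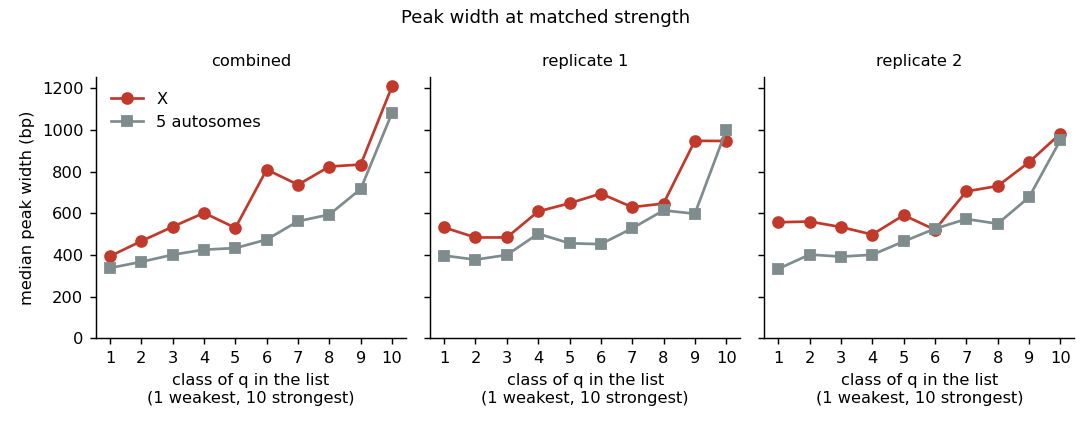
Median peak width in bp (y axis) in 10 classes of q from weakest to strongest (x axis), for X peaks (red circles) and peaks of the 5 autosomes (grey squares), in the combined list and in each ChIP replicate. The X line lies above the autosomal one in 10, 9 and 9 of 10 classes. In the strongest class median strength was higher on X in each list. The width difference in that class is 128 bp in the combined list, −52 bp in replicate 1 and 31.5 bp in replicate 2.

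X peaks were the wider ones whichever replicate had found them. The X median was above that of each of the 5 autosomes for combined peaks found in both replicates (896.5 bp on X, 623 to 697 bp on autosomes) and for those found in neither (495 bp, against 332.5 to 452 bp). The same held for peaks found in replicate 1 alone (752 bp, against 370 to 563 bp) and in replicate 2 alone (543 bp, against 435.5 to 528 bp). At the narrow end, 8 X peaks (1.95%) and 149 autosomal peaks (4.82%) of the combined list were under 200 bp, against 4.48% of all its peaks. Chromosome I was lower than X, at 1.64%. In the replicates such peaks were rare, with 1 on X and 8 on autosomes in replicate 1 (0.602% of all its peaks), and 1 on X and 28 on autosomes in replicate 2 (1.45% of all).

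Peaks of 1500 bp or more numbered 48 on X (11.7%, Wilson interval 8.94 to 15.2%) and 230 on autosomes (7.44%, 6.56 to 8.41%), against 7.94% of all combined peaks. They made up 34.2% of the bases under X peaks and 28.3% of those under autosomal peaks. In replicate 1 the shares were 7.85% on X and 5.53% on autosomes (5.82% of all), and chromosome I was higher than X at 10.3%. In replicate 2 they were 8.12% and 5.73% (6.01% of all), and chromosome I was close to X at 7.97%. The median strength of the 48 wide X peaks was 14.0, above the median of 6.91 of all X peaks, and it was 23.2 for wide autosomal peaks. Of the wide X peaks, 30 of 48 (62.5%) were found in both replicates, against 171 of 230 (74.3%) on autosomes. The 5 autosomes ranged from 56.8% on chromosome II to 85.0% on chromosome III, so X lay within their range.

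The widest X peaks after the domains described above were X 11470483 to 11475991, of 5509 bp, and X 8018095 to 8022628, of 4534 bp. Their combined strengths were only 20.9 and 16.1. In replicate 1 the peaks of largest overlap had widths of 1673 and 1111 bp and strengths of 6.396 and 3.998, and the second domain held 2 peaks of that replicate. In replicate 2 each domain held 1 peak, with widths of 1154 and 955 bp and strengths of 6.45 and 8.23. Combined X peaks that held 2 or more peaks of a replicate were rare, at 5 of 183 for replicate 1 and 6 of 220 for replicate 2, as they were on autosomes (3.37% and 3.24%).

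Peaks were spread over the whole of X, with more in the rightmost 25%. The first combined peak began at base 146744 and the last ended at base 17631973, the length used for X here. Cut into 4 equal parts, it held 91, 101, 92 and 126 combined peaks from left to right. The rightmost part thus held 30.7% (Wilson interval 26.5 to 35.4%), and its share was 33.0% in replicate 1 (26.7 to 39.9%) and 33.3% in replicate 2 (27.6 to 39.6%). The lower bound was above 25% in each list, while the intervals of the other 3 parts included 25% in each list. These intervals treat peaks as independent, although 41.0% of combined X peaks lay in runs of neighbours less than 5000 bp apart. They are therefore no test. Among the autosomes, chromosome II also had more than 25% in its rightmost part, at 28.6%, 31.6% and 29.8% in the combined list, replicate 1 and replicate 2. Chromosome IV had more than 25% in its leftmost part in every list, at 28.6%, 29.7% and 28.8% in the same order. An excess at 1 end was thus not particular to X. The median strength of combined peaks was 7.30 in the rightmost part and 6.55 to 7.23 in the other 3. Their median width was 627.5 bp in the rightmost part and 660 to 726.5 bp in the other 3. In replicate 1 the rightmost part had a median width of 549 bp, against 727.5 to 779 bp in the others. In replicate 2 it was 621.5 bp, within the 582 to 755 bp of the others.

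The outer 25% at each end together held 52.9% of combined X peaks (48.1 to 57.7%), 56.0% in replicate 1 and 54.3% in replicate 2. All 5 autosomes were below X in each list, from 33.8% on chromosome V to 46.9% on chromosome I in the combined list. The X intervals included 50% in all lists, so an excess near the ends as such was not detectable from the number of peaks.

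In windows of 1 Mb, 14 to 15 Mb was the densest in the combined list, with 37 peaks, and in replicate 1, with 19. It held 21 in replicate 2, where 12 to 13 Mb had the most, at 22. The window of 15 to 16 Mb held 30 peaks in the combined list, 17 in replicate 1 and 21 in replicate 2. The sparsest full windows were 0 to 1, 3 to 4 and 9 to 10 Mb, with 15 combined peaks each, and 8, 7 and 6 in replicate 1, against 7, 7 and 5 in replicate 2. The replicates differed most at 12 to 13 Mb, where replicate 1 had 11 peaks, replicate 2 had 22 and the combined list 29. The dip in the middle of the chromosome and the crowding to its right are visible in all 3 lists.

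**Figure D2:**
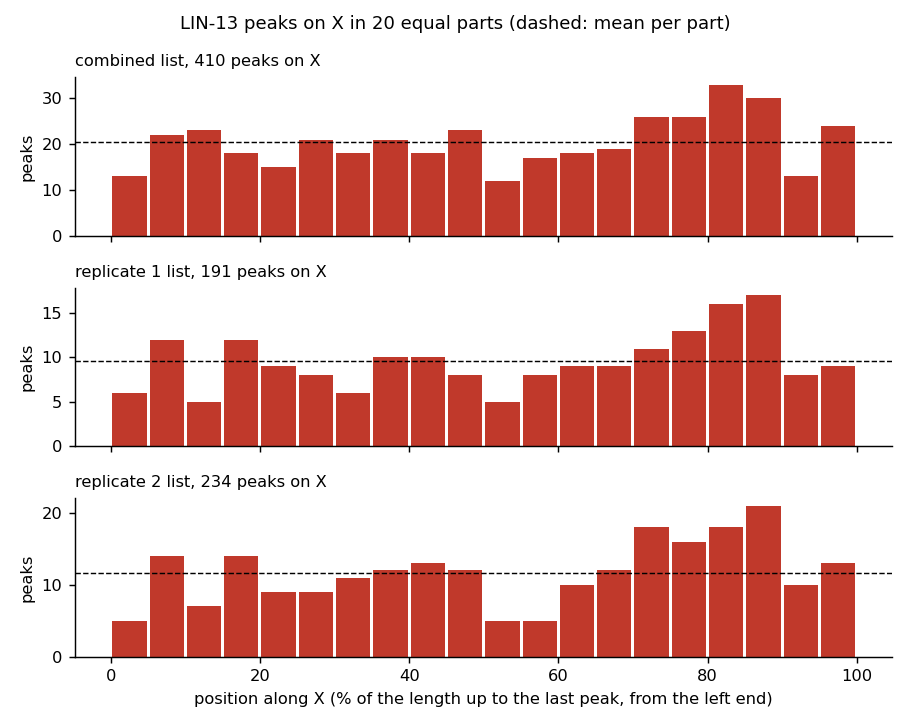
Number of LIN-13 peaks on X (y axis) in 20 equal parts of the chromosome, by position in percent of the length from the left end (x axis), in the combined list and in each ChIP replicate, with the mean per part as a dashed line. The parts between 70 and 90% are above the mean in all 3 lists, and the rightmost 25% of the length holds 30.7, 33.0 and 33.3% of their peaks.

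X peaks were more widely spaced than those of any autosome. Density was 23.3 combined peaks per Mb on X and 26.3 to 61.1 on the 5 autosomes. It was 10.8 on X and 11.4 to 28.7 on autosomes in replicate 1, and 13.3 and 15.0 to 36.1 in replicate 2. X thus had 0.62, 0.69 and 0.62 times the density of the 5 autosomes together, and 0.88, 0.95 and 0.88 times that of chromosome V, the nearest one. Because X peaks were wider, the share of bases under peaks differed less. It was 2.11% on X and 2.63% on autosomes in the combined list, 0.905% and 1.08% in replicate 1, and 1.09% and 1.45% in replicate 2. By this measure X was above chromosome V in each list (2.00, 0.752 and 1.06% on V).

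The median gap between neighbouring X peaks was 24852 bp, and the quartiles were 5651 and 61004 bp. The autosomal median was 11357.5 bp, and the highest of an autosome was 16079 bp, on chromosome V. In the replicates the median gap was 60934.5 bp on X and 33346 bp on autosomes in replicate 1, and 42856 and 24236 bp in replicate 2. Gaps over 100 kb made up 12.2% on X (50 of 409) and 4.89% on autosomes in the combined list. Such gaps made up 34.7% and 19.9% in replicate 1, and 27.0% and 13.4% in replicate 2.

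In the combined list spacing on X was less uneven than on the autosomes, but not even. The ratio of the median to the mean gap was 0.59 on X and 0.43 to 0.51 on the 5 autosomes. Exponentially distributed gaps would have 0.69, and a lower ratio means more uneven spacing. In replicate 1 the ratio was 0.68 on X and 0.56 to 0.61 on autosomes. In replicate 2 it was 0.58 on X and 0.48 to 0.63 on autosomes, where chromosome IV was higher, so the order did not hold there. Gaps under 5000 bp made up 24.2% on X and 34.9% on autosomes in the combined list. They made up 11.1% and 21.6% in replicate 1, and 20.2% and 24.4% in replicate 2. A share of gaps below a fixed length also depends on peak density, which was lower on X, so it does not measure evenness.

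**Figure D3:**
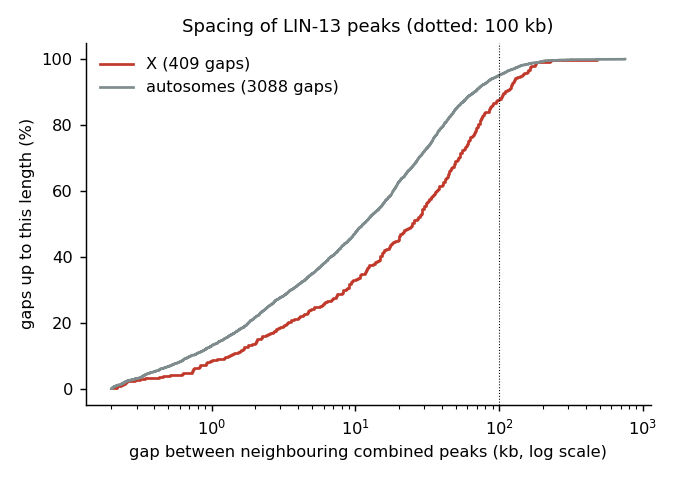
Percentage of gaps between neighbouring combined peaks (y axis) up to a given length in kb (x axis, log scale), for X (red) and the 5 autosomes (grey). The X curve lies to the right from about 1 kb on, with a median of 24852 bp on X against 11357.5 bp on autosomes.

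X and chromosome V had like numbers of gaps over 100 kb, 50 on X (12.2%) and 55 on V (10.0%). Bins of 100 kb with no combined peak were rarer on X, at 22 of 177 (12.4%), than on V, at 22.0%. They made up 10.5% on all autosomes together, but 0.725 to 9.15% on chromosomes I to IV, below X. Of the X bins, 51 held 1 peak, 34 held 2, 29 held 3 and 20 held 4. The densest X bin, 6200001 to 6300000, held 9 peaks, against 12 to 20 in the densest bin of each autosome.

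The densest X bins mixed strong and weak peaks. The bin from 6200001 had strengths from 3.58 to 115, and 3 of its 9 peaks were found in both replicates. The bin from 14800001 held 8 peaks with strengths up to 26.8, of which 3 were found in both. The bins from 1400001, 2500001 and 8000001 held 7 each, with the strongest at 25.6, 8.35 and 147. The bin from 2500001 was the weak one, with 1 peak in replicate 1 and 2 in replicate 2.

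Runs of neighbours less than 5000 bp apart took in 168 of the 410 X peaks (41.0%), against 50.9 to 61.5% on the 5 autosomes. This share, too, depends on peak density, which was lower on X. The longest X runs had 6 peaks each, at X 1443562 to 1457109, X 8016388 to 8036954 and X 14808782 to 14825015. The second of these ended with the peak at X 8035745 to 8036954, the third strongest of the chromosome. Of its 6 peaks, 2 were found in both replicates.

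The longest stretch of X without a combined peak was 478 kb, from 3128614 to 3606346, 2.71% of the length. It began next to a peak found in both replicates (X 3127128 to 3128613, strength 14.6) and ended at a weak peak found in neither (X 3606347 to 3606661, strength 4.56). In both replicates the empty stretch was longer and ended at nearly the same bases. It ran from 3128381 to 3969436 in replicate 1 and from 3128346 to 3969440 in replicate 2, 841 kb in each. Within those 841 kb the combined list had 5 peaks, which could overlap no replicate peak because the stretch was defined as empty in both. Of these, 4 had strengths under 6, and the other was X 3787318 to 3789082, of 1765 bp, with a strength of 13.02. It was the strongest of all X peaks found in neither replicate.

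The next longest combined stretches were 229 kb from 1627507 to 1856190, 227 kb from 5486278 to 5713575, 211 kb from 17181508 to 17392075 and 180 kb from 10197650 to 10377577. None of the 5 stretches held a whole peak of either replicate. This was nearly built in, because 189 of 191 X peaks of replicate 1 and 226 of 234 of replicate 2 overlapped a combined peak. Of the 10 peaks at the edges of the stretches, 4 were found in both replicates and 3 in neither. The first of these 4 stretches began at X 1626693 to 1627506, one of the 20 strongest X peaks. On the autosomes the longest combined stretch per chromosome ran from 161 kb on chromosome III to 751 kb on chromosome V, so X had the second longest. In each replicate the longest X stretch of 841 kb was again second to that of chromosome V, at 892 kb.

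Of the 410 combined X peaks, 156 overlapped a peak of both replicates by at least 1 bp. This was 38.0% (Wilson interval 33.5 to 42.8%), against 35.4% of autosomal peaks and 35.7% of all combined peaks. A further 64 (15.6%, 12.4 to 19.4%) were found in replicate 2 alone, against 18.6% of autosomal and 18.2% of all peaks. In replicate 1 alone 27 were found (6.59%, 4.57 to 9.41%), against 4.98% and 5.17%. The other 163 (39.8%, 35.1 to 44.6%) were in neither, against 41.1% and 40.9%. All 4 X shares were near those of the whole list and their intervals included it. The combined list presumably rests on these ChIP samples, which makes overlap with them partly built in.

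Support followed strength. Median strength was 15.3 for X peaks in both replicates, 7.64 in replicate 1 alone, 6.50 in replicate 2 alone and 4.54 in neither. In the classes of strength used above, both upper classes of X (35 and 45 peaks) were found in full in each replicate. Autosomal peaks of class 10 were also found in full in each replicate. Those of class 9 were found at 94.6% in replicate 1 and 99.7% in replicate 2. In class 8 (strengths 10.75 to 14.92), 40 of 42 X peaks were found in replicate 1 (95.2%, Wilson interval 84.2 to 98.7%), against 79.5% of autosomal peaks (74.7 to 83.7%). In replicate 2, 38 of those 42 were found (90.5%, 77.9 to 96.2%), against 94.8% (91.7 to 96.8%).

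At matched strength the share found in replicate 1 was higher on X in 8 of 10 classes, lower in 1 and equal in 1, with a median difference of 4.37 percentage points. In replicate 2 it was higher on X in 4 classes, lower in 5 and equal in 1, with a median difference of −0.28 points. The direction seen in replicate 1 was therefore not seen in replicate 2.

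**Figure D4:**
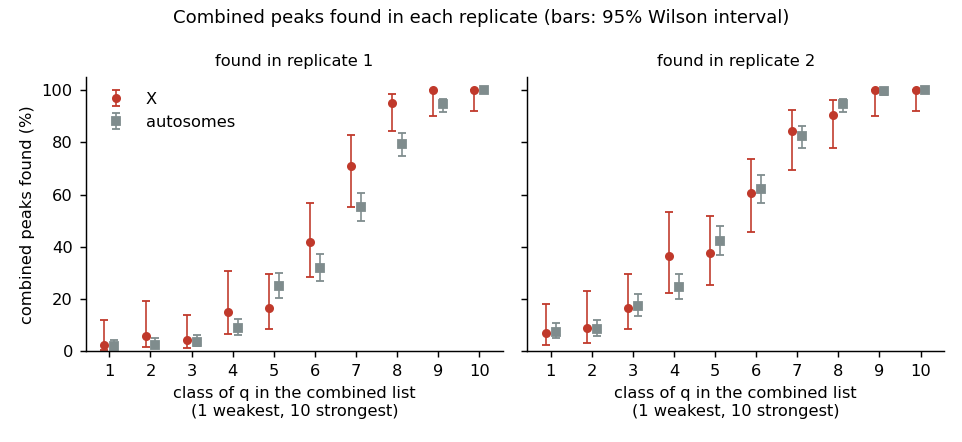
Percentage of combined peaks that overlap a peak of replicate 1 or of replicate 2 (y axis) in 10 classes of q (x axis), for X (red circles) and the 5 autosomes (grey squares), with 95% Wilson intervals. X lies above the autosomes in 8 of 10 classes for replicate 1 and in 4 of 10 for replicate 2, and most intervals of both overlap.

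Between the replicates themselves, 161 of the 191 X peaks of replicate 1 overlapped a peak of replicate 2 (84.3%, 78.5 to 88.8%), against 87.0% on autosomes and 86.7% of all its peaks. Of the 234 X peaks of replicate 2, 161 overlapped a peak of replicate 1 (68.8%, 62.6 to 74.4%), against 63.9% on autosomes and 64.4% of all. The X intervals included the shares of the whole lists. Of the X peaks of replicate 1, 189 of 191 overlapped a combined peak (99.3% of all its peaks did), and of those of replicate 2, 226 of 234 (97.1% of all).

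Over 155 one-to-one pairs of X peaks, strength had a Spearman's rho of 0.82 between the replicates and width 0.79, against 0.78 and 0.80 over 1091 autosomal pairs. These values are across peaks that share 2 libraries and carry no p. Replicate 2 had the higher strength in 108 X pairs (69.7%) and in 74.5% of autosomal pairs, and the median ratio of replicate 2 to replicate 1 was 1.17 on X and 1.20 on autosomes. This ratio depends on the unknown depth. Edges of the X pairs were a median of 65 bp apart at the start and 64 bp at the end, against 49 and 47 bp on autosomes. X peaks were also wider, and the median reciprocal overlap was close, at 81.5% on X and 82.2% on autosomes. Median widths of the X pairs were 670 bp in replicate 1 and 687 bp in replicate 2, and replicate 2 had the wider peak in 79 of 155.

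**Figure D5:**
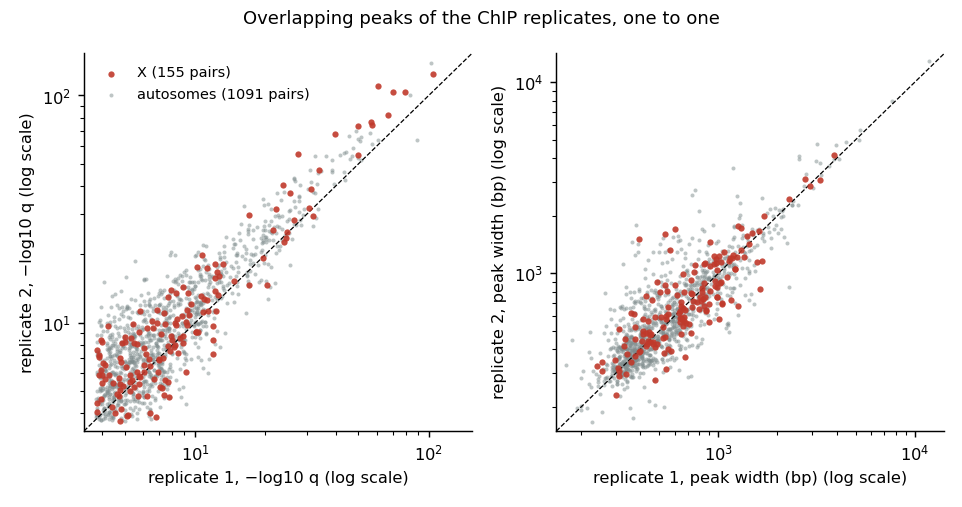
Strength as −log10 q (left) and width in bp (right) of overlapping one-to-one peaks in replicate 1 (x axis) and replicate 2 (y axis), on log scales, for 155 X pairs (red) and 1091 autosomal pairs (grey), with the line of equal values dashed. X pairs follow the cloud of autosomal pairs, and 108 of them lie above the line in strength.

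The X peaks found in only 1 replicate were weak to moderate. In replicate 1 alone the strongest were X 6748947 to 6750643, of 1697 bp, and X 767668 to 768519, of 852 bp, with combined strengths of 14.4 and 11.7. Their replicate 1 strengths were 5.33 and 8.26. The first lies 2779 bp to the right of the widest X domain, X 6736255 to 6746167. In replicate 2 alone the strongest were X 12168506 to 12171204, of 2699 bp, and X 4471353 to 4472038, of 686 bp, with combined strengths of 11.95 and 9.93 and replicate 2 strengths of 6.11 and 6.02. After X 3787318 to 3789082, the strongest found in neither replicate was X 5275227 to 5275560, of 334 bp, at 8.35.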

How the data were processed

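The authors deposited 3 peak lists, namely those of ChIP replicates 1 and 2 and a combined list, with a first base, a last base and a q-value per peak. Per the file headers and records, peaks were called with PeakSeq on WormBase WS180. Not given in the sources used here are the aligner, filters, q cut-off, PeakSeq version and how the combined list was made. Samples were grouped by title, because the description fields of ChIP and input samples appear exchanged. Input values were not analysed here, so no background level is given beside the authors' q-values.

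The −log10 q was computed as strength. Shared peaks overlap by at least 1 bp, and the partner of largest overlap was taken. The last peak end over all lists served as chromosome length. Gaps run from the base after a peak to the base before the next, and peaks were placed by midpoint. Peaks named are the 20 strongest and 5 widest on X, the 2 strongest of each kind found in 1 or neither replicate, those beside the 5 longest empty stretches, and the 5 densest 100-kb bins. Other runs, windows and edge peaks were named after their values were seen. The members, lists and rules were chosen with earlier results of these data known. No test over peaks was run. Procedures were tested on simulated lists. Python 3.11.15, numpy 2.4.6, pandas 2.3.3 and matplotlib 3.10.9 were used.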

Additional observations from a re-analysis of the deposited data

How the results depend on the processing

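Of 45 alternatives to 8 results, 20 stayed within the spread of the replicates, the interval or 1.5 times the count, 24 moved and 1 turned round. Some moves were built in, so the tally is no measure of stability. Keeping part of a list lowers the number of peaks and cannot shorten the longest stretch. Requiring 1 replicate in place of both cannot lower the share found. For the longest stretch the spread of the replicates was only 0.0276 kb, so nearly any change counted as moved. Leaving out a replicate meant using the list of the other. X peaks then numbered 191 to 234, at 0.62 to 0.69 times the autosomal density, the width difference was 152 to 169 bp, the median gap 42856 to 60934.5 bp and the longest stretch 841.056 to 841.095 kb, against 478 kb in the combined list. Requiring 1 replicate alone gave 44.6 to 53.7% of X peaks found. X minus autosomes was then −0.30 to 4.28 percentage points, against 2.68 for both replicates. It was below 0 without replicate 1, so this difference has no stable direction. Peaks up to the median q of the list left 203 X peaks, with 73.4% found in both replicates, a width difference of 226 bp, a median gap of 55113 bp and a longest stretch of 659 kb. Overlap of 50% each way gave 32.0% found in both, and midpoints within 200 bp gave 30.0%. In these settings X minus autosomes was 5.42 percentage points for the median q, 3.11 for the 50% overlap and 2.00 for the midpoints. The X shares thus moved mostly together with those of the autosomes. Joining peaks closer than 5000 bp gave 0.72 times the autosomal density. The width difference of 165 bp was 238.5 bp for peaks found in both replicates and 131 bp over classes of q. Alternatives added after seeing the data gave 122.5 bp for peaks under 1500 bp, and 145 bp and a density of 0.71 times without chromosome III. The density was 0.56 times without chromosome V. The cause of these shifts was not tested. X stayed below the autosomes in density and above them in median width under every alternative run. No paired analysis was possible because the inputs have no peak lists here. Peak numbers and gap lengths depend on depth, which is unknown.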

Other observations

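The X peaks of the replicates that overlapped no combined peak, 2 in replicate 1 and 8 in replicate 2, were weak. In replicate 1 these were X 13595903 to 13596277, with a strength of 4.99, and X 4136023 to 4136216, with 4.04. The second lies 1355 bp from the nearest combined peak, X 4137571 to 4140041, which is itself 687 bp from the domain at X 4140729 to 4149004. In replicate 2 the strongest were X 8080086 to 8080763, with 5.31, and X 15611517 to 15611968, with 4.97. None of these 4 was found in the other replicate. At the right end of X, the last 3 combined peaks formed a run from 17626363 to 17631973 with widths of 1217 to 1493 bp and strengths of 4.61 to 5.73, none of them found in both replicates.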
